A study of Mus musculus with 3 samples.

Results

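Cd4 encodes the co-receptor that binds MHC class II and marks helper T cells. Reads of 3 chromatin immunoprecipitation libraries were taken across 70 kb of chromosome 6 around this gene, chr6:124800000-124870000 on mm9. The stretch was chosen with its H3K4me3 difference between the libraries already known, so that difference is described here and not tested. It held 2608 of 12075963 reads of the STAT3-deficient H3K4me3 library, 809 of 12281399 reads of the wild-type H3K4me3 library and 1008 of 10127075 reads of the wild-type phospho-STAT3 library. Cd4 lies on the minus strand, so the gene runs towards lower coordinates. Its start site was taken near 124838500 and its upstream enhancer near 124850500, 12 kb away, from the description of the locus and not from an annotation of this build.

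STAT3-deficient cells were Stat3fl/fl FoxP3-GFP with CD4-Cre, and wild-type cells were Stat3fl/fl FoxP3-GFP without Cre. Both thus carried the conditional Stat3 allele and the FoxP3-GFP allele. Naive T cells were sorted as CD4-positive, CD44-negative and CD62L-positive, so the protein of the gene described here was itself part of the gate. They were activated for 72 h through CD3 and CD28 with 10 ng/ml of IL-6 and 2.5 ng/ml of TGF-b, cytokines under which such cells become Th17 cells that make IL-17, while IL-2, IL-4 and IFN-g were blocked. IL-6 was given again for 1 h before chromatin was prepared. H3K4me3 is a histone mark of active promoters. The phospho-STAT3 antibody was raised against the form phosphorylated on serine 727. Each of the 3 groups was 1 library, and neither the age, the sex nor the number of mice is stated in the labels. The Stat3 gene and T cell marker genes other than Cd4 were not placed on mm9, so the genotype label and the cell type were not checked against them.

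As background, Cd4 is expressed in helper T cells and silenced in cytotoxic T cells. Its transcription is driven by the promoter together with an enhancer upstream of the gene, and a silencer in the first intron, bound by RUNX factors, shuts the gene off in cells of the CD8 lineage. In helper-lineage cells the factor ThPOK (Zbtb7b) counteracts that silencer. The CD4-Cre driver uses regulatory elements of this same gene to express Cre in T cells, so DNA of the transgene can give reads that align here. CD4-Cre was present only in the STAT3-deficient library and no input library was analysed here. More mark on the resident gene and additional copies of these stretches therefore cannot be told apart in any STAT3-deficient value that follows.

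A block of 9.2 kb at the promoter and the gene's 5′ part carried far more H3K4me3 reads in the STAT3-deficient library. The block, chr6:124829600-124838799, held 1960 reads in the STAT3-deficient library, against 236 reads in the wild-type library. It held 75.2% of the locus reads in the STAT3-deficient library, 29.2% in the wild-type library and 22.4% in the phospho-STAT3 library. With the median log2 ratio of all marked regions (those with 50 or more pooled H3K4me3 reads) set to 0, the block was 6.77-fold higher in STAT3-deficient cells (95% Clopper-Pearson interval 5.92 to 7.79). By library totals it was 8.45-fold higher (7.38 to 9.71). Intervals here and below cover counting error only, since there is 1 library per group and the reads carry no molecular identifiers.

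**Figure D1:**
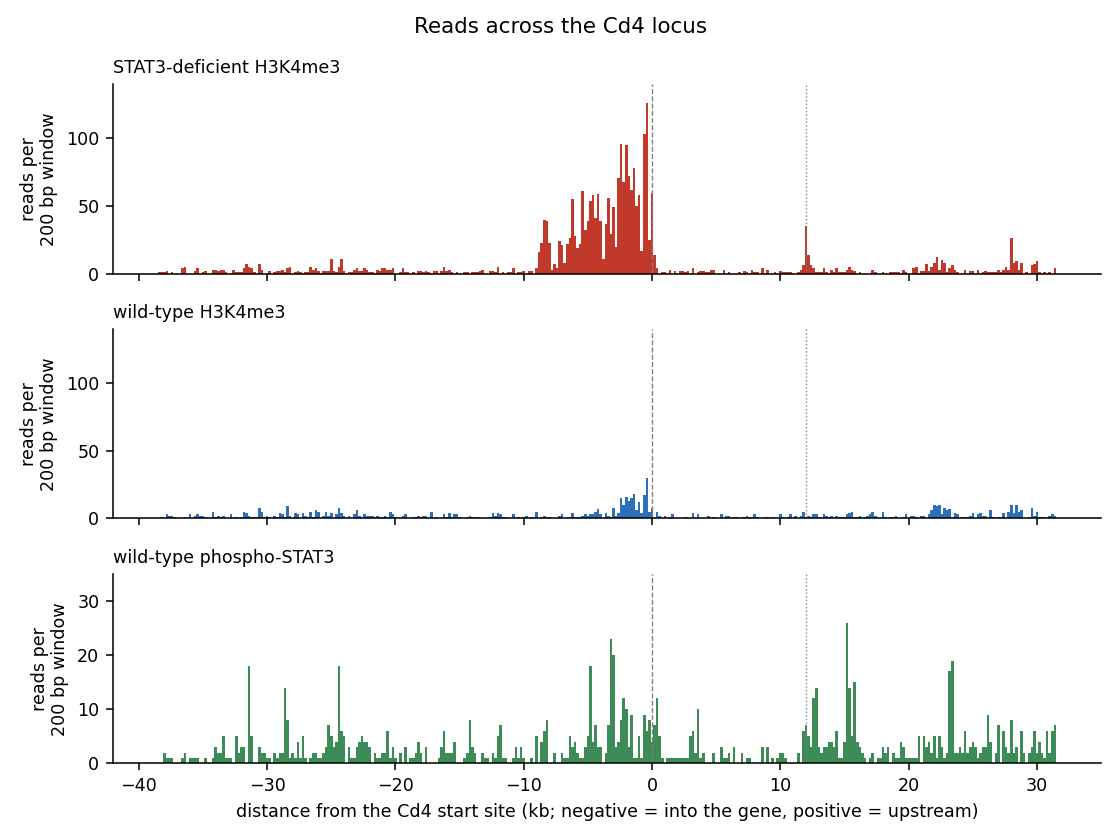
Reads per 200 bp window (vertical axis) against distance from the Cd4 start site in kb (horizontal axis), in the STAT3-deficient H3K4me3, wild-type H3K4me3 and wild-type phospho-STAT3 libraries. Dashed and dotted lines mark the start site and the enhancer position. The STAT3-deficient library reaches 126 reads per window in the block and the wild-type library 30, and a second, narrow rise stands at the enhancer in the STAT3-deficient but not in the wild-type H3K4me3 library.

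The wild-type library had H3K4me3 at Cd4 too, over a shorter stretch. Called on the STAT3-deficient reads alone, the region ran from 124829600 to 124838799, the same as in both libraries pooled. Called on the wild-type reads alone, it ran from 124836000 to 124838199. The highest window was the same in both, centred 0.40 kb into the gene, with 126 reads in the STAT3-deficient library and 30 reads in the wild-type library. Over the 46 windows of 200 bp in the block, counts ranged from 3 to 126 with a median of 39 in the STAT3-deficient library, and from 0 to 30 with a median of 3 in the wild-type library. All 46 windows were higher in the STAT3-deficient library after scaling. Window counts of both libraries followed each other along the block (Pearson r = 0.87, Spearman rho = 0.85 over 46 windows, which are neighbours on 1 chromosome and share the libraries).

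The excess did not keep 1 ratio along the block. In the 1 kb centred 0.40 kb into the gene, 331 STAT3-deficient reads stood against 64 wild-type reads, a 4.22-fold difference (log2 ratio 2.08, interval 1.69 to 2.49). In the next 1 kb, centred 1.40 kb into the gene, 320 reads stood against 64, a 4.08-fold difference. Here the wild-type mark was at its highest. The values were 350 against 47 reads at 2.40 kb and 182 against 15 reads at 3.40 kb into the gene. At 4.40 kb there were 251 STAT3-deficient and 21 wild-type reads, a 9.75-fold difference. Farther inwards both libraries held fewer reads per 1 kb than in these steps, though the STAT3-deficient count rose again to 141 in the farthest 1 kb. At 5.40 kb there were 173 STAT3-deficient and 9 wild-type reads, and at 6.40 kb 139 and 6 reads.

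In the 4 kb of the block farthest from the start site, the wild-type library was at the level of the surrounding DNA. The STAT3-deficient library held 512 reads in these 4 kb, or 128.0 per kb (Poisson interval 117 to 140), which is 19.1 times its flank density of 6.69 per kb. The wild-type library held 25 reads, or 6.25 per kb (4.04 to 9.23), against 6.85 per kb in its flanks. The flanks are the 500 kb on either side of the locus outside called regions, 956.2 kb in all. The farthest 1 kb alone held 141 STAT3-deficient and 5 wild-type reads, 23.0-fold, and the next 1 kb held 59 and 5. The log2 ratio over the 4 kb was 4.06 (3.48 to 4.70), and over the remaining 5.2 kb, with 1448 and 211 reads, it was 2.48 (2.28 to 2.70). These stretches were set after the values were seen.

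**Figure D2:**
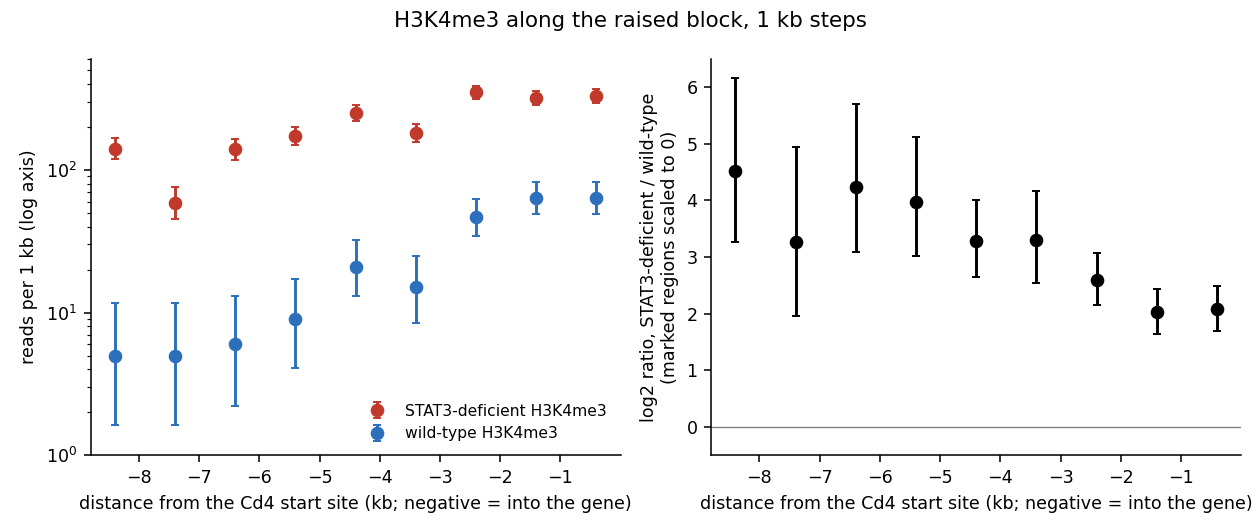
Left, H3K4me3 reads per 1 kb (log axis) with exact Poisson 95% intervals in the STAT3-deficient and wild-type libraries; right, log2 ratio of STAT3-deficient over wild-type reads with its Clopper-Pearson interval; both against distance from the Cd4 start site in kb. Of the 9 full steps, those nearest the start site have ratios of 2.08 and 2.03 and the farthest one 4.52.

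Deposited reads are limited to 1 per position and strand, which caps dense stretches. In the block 10.6% of positions were occupied in the STAT3-deficient library and 1.29% in the wild-type library. In its highest window 30.0% were occupied in the STAT3-deficient library and 7.50% in the wild-type library. Corrected for positions hit more than once by the mean occupancy, STAT3-deficient counts would be 1.06 times higher over the block and 1.19 times higher in that window. Occupancy was uneven along the block, so the first value is a low estimate. Corrected window by window in both libraries, the block's log2 ratio was 2.86 in place of 2.76. Both strands contributed alike. By unshifted 5′ ends, which move a few reads across the block's borders, there were 1016 plus-strand and 941 minus-strand reads in the STAT3-deficient library, and 113 and 125 in the wild-type library.

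Read density stepped up at the block's lower end and down at its upper end in the STAT3-deficient library. The ends were called with these same reads, so steps near them were given in advance and are only described. On the plus strand, the best single step of read 5′ ends lay at 124829684 at the lower end, 8.82 kb into the gene, and at 124838603 at the upper end, about 103 bp upstream of the start site. In the 250 bp inside the lower end there were 31 STAT3-deficient reads, and 2 in the 250 bp outside it. The wild-type library held 1 read inside and 6 reads outside, so it had no rise there. All these counts were taken at positions fitted to the STAT3-deficient reads. At the upper end the STAT3-deficient library held 67 reads inside and 12 outside, and the wild-type library 6 inside and 1 outside.

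The steps of both strands lay close together. Fragments are read from either end, so plus- and minus-strand 5′ ends at the border of an enriched region are usually displaced by about a fragment length. At the block the minus-strand step lay 30 bp from the plus-strand step at the lower end (support range 12 to 59) and -2 bp at the upper end (-2 to 48). Over 531 other marked regions of chromosome 6 the best displacement was 135 bp in the STAT3-deficient library and 140 bp in the wild-type library. In 150 other marked regions of at least 2 kb and 300 STAT3-deficient reads, the median displacement was 139 bp over 130 lower ends and 120 bp over 133 upper ends. It varied widely between them, with quartiles of -11.8 and 236 bp at lower ends and -46 and 215 bp at upper ends. Counted with its sign, a displacement at or below that of the block was found at 31.5% of lower and 27.8% of upper ends. These shares include negative displacements of any size, so they do not measure how close the strands lay. The block's values lay between the quartiles at both ends, so over all ends this measure does not set the block apart. Among ends located within 150 bp on both strands, the shares, counted alike, were 31.0% of 42 lower and 15.2% of 46 upper ends. Quartiles there were 26.25 and 187 bp at lower and 59.25 and 163.5 bp at upper ends. The block's lower value lay within these quartiles and its upper value below them. The reads outside were 6.45% of those inside at the block's lower end and 17.9% at its upper end. The medians in the other regions were 19.1% and 16.7%, or 9.55% and 10.9% among the ends located within 150 bp. At the lower end 18.5% of the other regions had a share as low as that of the block or lower, or 35.7% among the ends located within 150 bp. At the upper end these values were 52.6% and 65.2%, so its fall was no steeper than usual there.

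**Figure D3:**
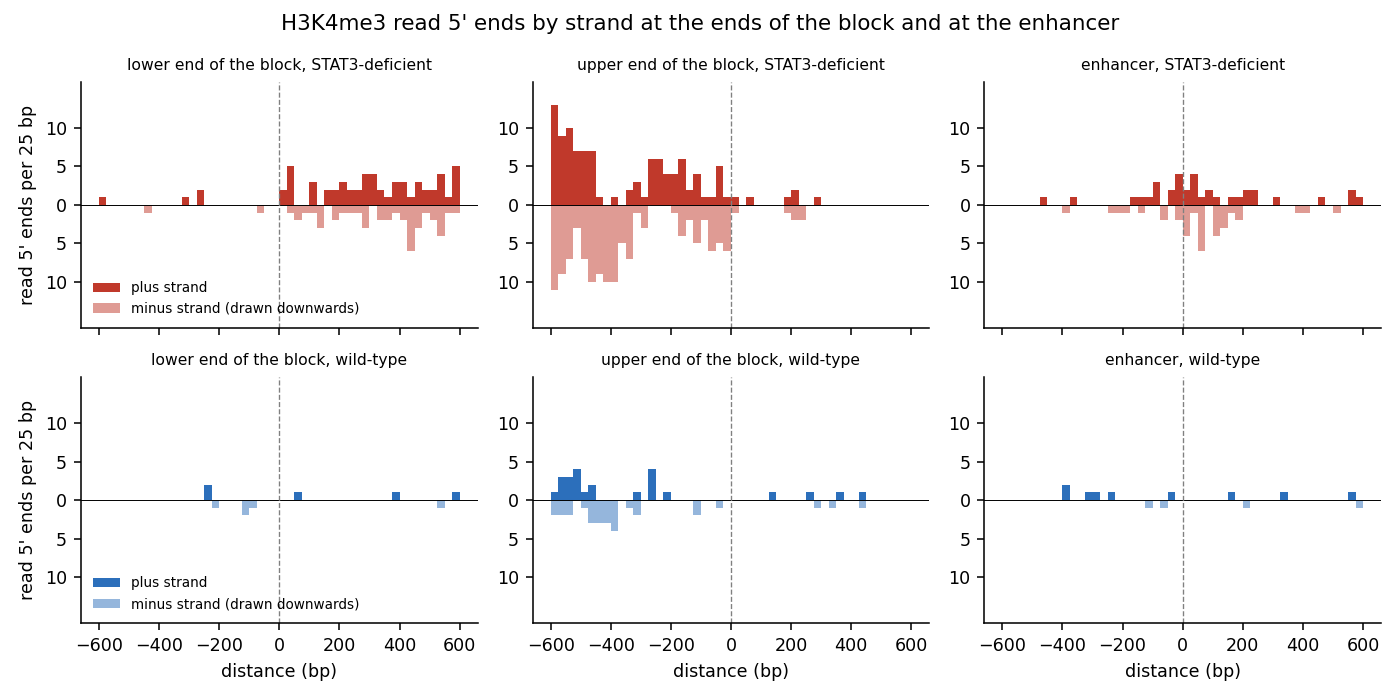
Read 5′ ends per 25 bp on the plus strand (upwards) and the minus strand (downwards) against distance in bp from the lower end of the block, from its upper end and from the enhancer position. The STAT3-deficient library is in the upper row and the wild-type library in the lower row. STAT3-deficient reads of both strands rise at the lower end and fall at the upper end, where the steps of both strands lie 30 and -2 bp apart.

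The upstream enhancer gave a second, isolated rise. A region of 400 bp, chr6:124850400-124850799, held 49 STAT3-deficient reads, against 3 wild-type reads, a log2 ratio of 3.74 (2.10 to 6.06). Its higher 200 bp window held 35 reads in the STAT3-deficient library, 1 read in the wild-type library and 7 reads in the phospho-STAT3 library. The region was chosen for its reads, so a fixed window of 500 bp either side of 124850500 is given beside it. That window held 64 STAT3-deficient reads, against 11 wild-type reads, which is 4.75-fold higher (2.48 to 9.98) or a log2 ratio of 2.25. With 1 kb either side, 70 STAT3-deficient and 20 wild-type reads gave a log2 ratio of 1.51. The STAT3-deficient count corresponds to 63.9 reads per kb, 9.56 times the flank density of that library, and the wild-type count to 10.99 reads per kb, 1.60 times its own flank density.

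The rise at the enhancer was short. The stretch of 431 bp that held the STAT3-deficient excess on either strand, chr6:124850325-124850755, carried 54 STAT3-deficient and 5 wild-type reads. The adjoining 500 bp on both sides together carried 15 STAT3-deficient and 10 wild-type reads. This stretch was drawn from the STAT3-deficient reads, so its count is a description. At its outer limits the minus-strand reads began 119 bp after and ended 34 bp before the plus-strand reads, with 25 and 28 reads inside.

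The rest of the locus differed little between both H3K4me3 libraries. The 11.2 kb between the block and the enhancer window held 63 STAT3-deficient and 56 wild-type reads, a log2 ratio of -0.12 (-0.67 to 0.42). The 29.6 kb below the block, which hold the rest of the gene and what lies beyond its end, held 272 and 265 reads. Scaled by marked regions, their log2 ratio was -0.26 (-0.51 to -0.0068). Scaled by library totals it was 0.062, on the other side of 0. The 19.0 kb beyond the enhancer window held 249 STAT3-deficient and 241 wild-type reads, a log2 ratio of -0.25 (-0.51 to 0.015), or 0.071 by library totals. The flanks, mostly background, had a log2 ratio of -0.33 when scaled by marked regions and of -0.010 by library totals. By library totals the other stretches of the locus had STAT3-deficient over wild-type ratios between 1.04-fold and 1.14-fold. Their intervals all included no difference. They were 0.88 to 1.24 below the block, 0.79 to 1.67 between block and enhancer window, and 0.88 to 1.26 beyond it.

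A promoter window of 1 kb either side of the start site held 378 STAT3-deficient and 77 wild-type reads. It was 4.0-fold higher in STAT3-deficient cells (3.13 to 5.18), a smaller fold than that of the whole block. In this window the density was 28.2 times that of the flanks in the STAT3-deficient library and 5.62 times that of the flanks in the wild-type library.

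Of 5 regions called in the locus, 4 were marked, and 2 of these passed the size rule (at least 2-fold with an interval excluding no change). Both were higher in STAT3-deficient cells, the block and the enhancer region. Across the genome 1.01% of 10971 marked regions were called higher and 1.13% lower, that is 111 and 124 regions, a balance that became 319 and 54 when scaled by library totals. Since the locus was chosen on this difference, nothing is read from that count. The remaining marked regions were chr6:124860400-124861399, with 41 STAT3-deficient and 40 wild-type reads, and chr6:124866400-124868599, with 77 and 51 reads. Their intervals of the log2 ratio, -0.92 to 0.41 and -0.23 to 0.84, included no difference. The fifth region, chr6:124813400-124814399, held 30 and 19 reads and was too thin to be marked. In the gene table of GRCm38.p6, P3h3, Gm32404 and Gpr162 precede Cd4, and Lag3, Ptms and A230083G16Rik follow it on the enhancer's side. Lag3 encodes an inhibitory receptor of T cells that also binds MHC class II. These genes were not placed on mm9, so no region is assigned to them.

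Of windows of 200 bp with 20 or more pooled H3K4me3 reads, 40 of 42 in the locus were called higher in STAT3-deficient cells. They were 39 of 39 in the block and the single one tested at the enhancer, while 0 of the 2 tested elsewhere in the locus were called in either direction. Across the genome 2.37% of 41055 such windows were called higher and 1.89% lower, and nothing is read from this count either.

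By reads summed over its width, the block was among the H3K4me3 regions with the most reads in both libraries. Among 10971 marked regions it ranked 2 by STAT3-deficient reads and 137 by wild-type reads. These are sums over its whole width of 9.2 kb, and only 14 marked regions were at least that wide. Its limits were also those called on STAT3-deficient reads alone, while the region called on wild-type reads alone held 156 wild-type reads. By log2 ratio the block ranked 3, and the enhancer region of the same gene ranked 1. The enhancer region's rank rests on 49 STAT3-deficient and 3 wild-type reads, and its log2 ratio had an interval of 2.10 to 6.06. By wild-type reads that region ranked 10971. The locus was chosen on this difference, so nothing is read from the ranks by ratio or by reads. Of the other marked regions of 2 kb or more, the 5 with the ratio nearest to that of the block were on chromosomes 1, 7, 14 and 19. They held 134 to 314 STAT3-deficient and 22 to 51 wild-type reads and were 4.96-fold to 5.35-fold higher. The nearest of them fell short of the block by 0.34 log2 units, and none was wider than 3400 bp. Its log2 ratio of 2.42 was the highest among other marked regions of 2 kb or more, so the nearest were also the highest. The marked region that ranked 2 by ratio lay outside the locus and was narrower than 2 kb.

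**Figure D4:**
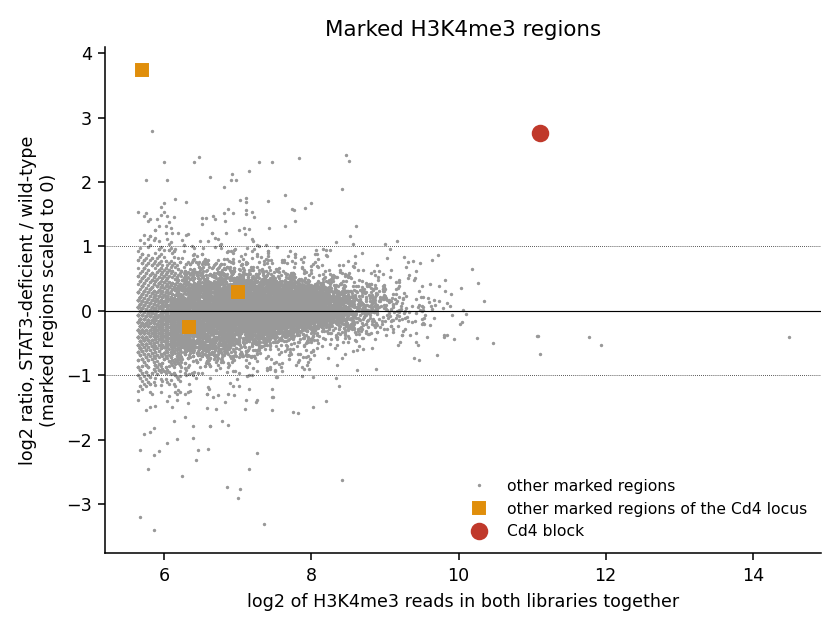
Log2 ratio of STAT3-deficient over wild-type H3K4me3 reads (vertical axis) against log2 of the reads of both libraries together (horizontal axis), for 10971 marked regions. The Cd4 block, at a ratio of 2.76, is the red circle, and the other marked regions of the locus are orange squares, the enhancer region at 3.74 among them. Dotted lines mark a 2-fold difference.

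Stretches with little wild-type signal and many STAT3-deficient reads were also counted over the genome. Of 2051788 bins of 1 kb with at least 1 H3K4me3 read and at most 10 wild-type reads, 21 held at least 50 STAT3-deficient reads. In the Cd4 locus there were 3 of these 21 bins, and the highest of them held 150 STAT3-deficient and 8 wild-type reads. The highest bin outside the locus, on chromosome 1, held 115 and 10 reads. The 3 bins of the locus adjoin each other in the block. These limits were set after the block had been seen and follow the difference on which the locus was chosen. Nothing is therefore read from this count.

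The match code deposited with each read, a readout that the choice of the locus did not use, was close to the library-wide level in the block. Reads with a mismatch made up 3.38% of 1955 block reads in the STAT3-deficient library (95% Clopper-Pearson interval 2.62 to 4.28), 2.53% of 237 in the wild-type library (0.93 to 5.43) and 5.36% of 224 in the phospho-STAT3 library (2.80 to 9.17). Over the whole libraries such reads made up 3.97% (STAT3-deficient), 3.90% (wild-type H3K4me3) and 4.58% (phospho-STAT3). No base of the block was mismatched in more than 2 plus-strand reads of the STAT3-deficient library. With 1016 plus-strand reads of 25 bp over 9.2 kb, only a few reads cover most bases. A base changed in every copy could thus stay within this limit, and nothing is read from this count. Minus-strand reads were left out of this count, since the orientation of their code was not settled.

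Phospho-STAT3, measured in wild-type cells alone, was found at 5 sites in the locus, of 27059 called across the genome. The genome-wide average was 0.72 sites per 70 kb, the length of the locus. None of these 5 coincided with the promoter or the enhancer position. Windows of 200 bp outside the called sites still held 12 phospho-STAT3 reads 0.40 kb upstream of the start site and 14 reads 12.8 kb upstream, near the enhancer. The site inside the block lay 3.1 kb into the gene, chr6:124835200-124835549. Its highest window held 28 phospho-STAT3 reads, 16 on the plus and 12 on the minus strand, 6.09-fold over a local expectation of 4.60 reads. It ranked 8573 among all sites by reads above the local expectation. The same window held 32 STAT3-deficient H3K4me3 reads and 1 wild-type H3K4me3 read. An overlapping window, chr6:124835400-124835599, held 20 phospho-STAT3 and 8 wild-type H3K4me3 reads. The wild-type mark was thus low in the site's highest window but not absent beside it.

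Both sites with the highest read numbers lay upstream of Cd4, beyond the enhancer. The site chr6:124861650-124861999, 23.3 kb upstream of the start site, held 32 phospho-STAT3 reads, 9.41-fold over local expectation. The site chr6:124853550-124853899, 15.2 kb upstream, held 31 reads, 8.52-fold over local expectation. They ranked 5466 and 6066, in the top 25% of all sites, which starts at an excess of 26.1 reads. H3K4me3 was low in their windows, with 9 STAT3-deficient and 3 wild-type reads in the first and 1 and 2 reads in the second. The other 2 sites lay 24.4 kb and 31.4 kb from the start site in the gene's direction and held 20 and 18 phospho-STAT3 reads.

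**Figure D5:**
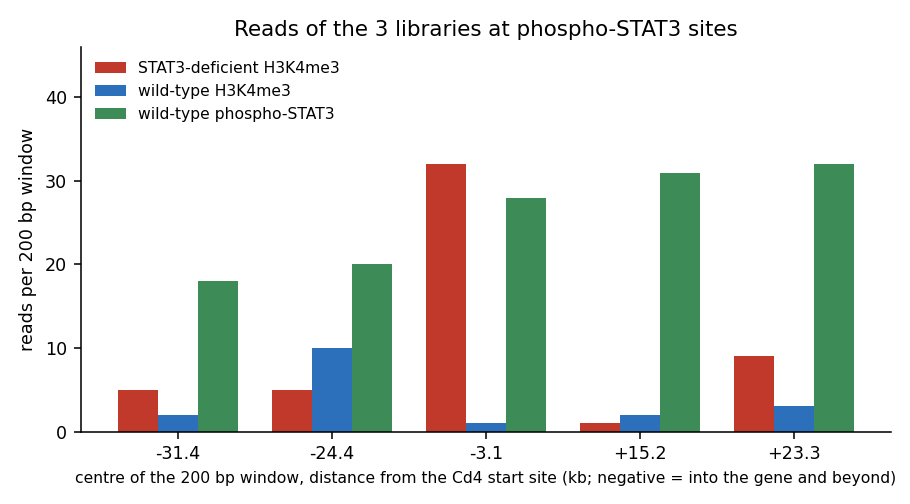
Reads per 200 bp window (vertical axis) at the 5 phospho-STAT3 sites of the locus, placed by distance from the Cd4 start site in kb, in the STAT3-deficient H3K4me3, wild-type H3K4me3 and wild-type phospho-STAT3 libraries. At the site 3.1 kb into the gene 28 phospho-STAT3 reads stand beside 32 STAT3-deficient and 1 wild-type H3K4me3 reads.

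Phospho-STAT3 reads were also denser over the gene's 5′ part than in the flanks, unevenly along it. The block held 226 of them, 24.6 per kb (Poisson interval 21.5 to 28.0), against 7.57 per kb in the flanks. The 4 kb farthest from the start site held 48 reads and the remaining 5.2 kb 178 reads, 1.58 and 4.52 times the flank density. The promoter window held 55 reads, 27.5 per kb, and the enhancer window 21 reads, 20.98 per kb (12.99 to 32.1). The stretch between block and enhancer window, at 7.50 per kb, was at the level of the flanks, while the 19.0 kb beyond the enhancer window held 19.05 per kb, close to the enhancer window itself. Phospho-STAT3 in STAT3-deficient cells was not analysed here, so this library has no negative control.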

How the data were processed

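The files that the authors deposited list each aligned read of 25 bp by position and strand, with a match code and no score. Per the submitters' processing notes the build was mm9 and SICER was used. The aligner is not given in the sources at hand. From the values, no position and strand held more than 1 read in any deposited file. Per the labels' protocols, libraries had 18 PCR cycles and fragments of about 250 bp including adapters.

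Reads were moved 75 bp towards the fragment centre. H3K4me3 regions came from the pooled reads of both libraries: 200 bp windows with at least 12 reads (Poisson p of 1e-05, mappable share 0.8), joined within 600 bp, at least 2 windows. Ratios are STAT3-deficient over wild-type reads with exact 95% intervals. Phospho-STAT3 sites were 200 bp windows in 50 bp steps with at least 10 reads in all and some on each strand. They also needed p under 1e-08 against the larger of genome-wide and 10 kb density. Steps of read density were fitted by Poisson likelihood within 1 kb of the block's ends, with a support range at a drop of 1.92. Genotypes were not tested against each other, since each group was 1 library. The size rule and the step fit were tested on simulated data.

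Named were Cd4, every region and site of the locus, the highest window of each element and the 5 wide regions with the nearest ratio. The locus and all lists were chosen with earlier results of these data known. No sequence of Cd4 is printed. The list of Cd4 regulators could not be placed on mm9 and was used only for a promoter search. Computations used Python 3.11.15, numpy 2.4.6, scipy 1.17.1, pandas 2.3.3 and matplotlib 3.10.9.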

Additional observations from a re-analysis of the deposited data

How the results depend on the processing

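The block, the promoter window and the enhancer window stayed higher in the STAT3-deficient library under every alternative run, with log2 ratios of 2.11 to 3.16, 1.89 to 2.33 and 1.51 to 3.74. The alternatives were other scalings, read shifts, single strands, equal depth, correction for occupied positions and other limits of the stretches. The block's log2 ratio was 3.08 by library totals, 3.09 by flanks and 3.16 with background subtracted. Library totals differ from the scaling by marked regions by 0.32 for every region. Called on the wild-type library alone it was 2.11, over a shorter region. At the enhancer, the called region in place of the fixed window, added after seeing the data, gave 3.74, and the window of 1 kb either side gave 1.51. Below the block the ratio turned to 0.062 by library totals and 0.072 by flanks, and beyond the enhancer window it was 0.071 and 0.082. Between block and enhancer it lay between -0.22 and 0.20.

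The marked regions called higher and lower, 111 and 124, became 319 and 54 by library totals, 172 and 417 with at least 20 reads, and 56 and 39 with at least 100 reads, where other numbers of regions were tested. The 5 phospho-STAT3 sites became 3 at p under 1e-12 and 13 against the genome-wide density alone, with 5 of the 13 in the block. With steps searched within 2 kb, the displacement at the block's ends was 30 and 22 bp. No paired analysis was possible because each group had 1 library. Depth limits the enhancer and the inner block most, where wild-type counts were between 3 and 25 reads.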

Other observations

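Promoter sequences of the RefSeq table (GRCm38.p6, 250 bases before to 50 after each start) were searched on both strands. The motifs were TTCNNNGAA (STAT), ACCACA (RUNX), CANNTG (E-box) and AACNG (MYB). Of 19 listed regulators of Cd4 and T cell genes, 15 had a promoter in the table. The STAT motif was in 1 of these 15, that of Ikzf1, a zinc-finger factor of lymphocytes, against 9.55% of 27025 genes in the table. The RUNX motif was in 4 of the 15, those of Lck, Runx1, Runx3 and Zbtb7b, against 18.9% of all. Of the neighbours of Cd4, P3h3, Ptms, Gm32404 and A230083G16Rik had an entry, and none of these 4 held the STAT or the RUNX motif. The E-box motif was in 3 of them and the MYB motif in all 4. A match of letters is a description and not a binding site.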
